A study of Homo sapiens with 6 samples.

Results

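The 43 genes described here are the epithelial-mesenchymal and matrix remodeling genes of lung squamous cell carcinoma (LUSC) cells, chosen by symbol from 17448 genes listed in an expression table, and all 43 had a row in it. They cover cadherins and epithelial markers, the transcription factors of the epithelial-mesenchymal transition (EMT) with vimentin, collagens, matrix glycoproteins, plasminogen activation, matrix metalloproteinases (MMPs), their inhibitors, and integrins with the hyaluronan receptor CD44. RNA-seq was performed on HCC2814, a human LUSC cell line, with 3 WT and 3 MLST8-KO samples. WT cells carried a non-targeting guide RNA (sgCtrl). MLST8-KO cells carried a guide against MLST8, which encodes a subunit that mTORC1 and mTORC2 share and that the study knocked out to disable mTORC2. Both groups were made with the same CRISPR vector and antibiotic selection, and were sequenced as pooled cells rather than as clones. The submitters describe the replicates as biological and from independent experiments. The comparison asks how expression of these genes differed once MLST8 was targeted.

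EMT is the program by which epithelial cells loosen the cadherin junctions that hold them together and take on mesenchymal features such as vimentin filaments and a fibronectin-rich matrix. SNAI, ZEB and TWIST factors drive it by repressing epithelial genes, and carcinoma cells often hold a mixed state. Matrix remodeling couples the synthesis of collagens and glycoproteins to their cleavage by MMPs and by plasmin, which urokinase (PLAU) generates at its receptor PLAUR, and integrins carry the state of the matrix into the cell.

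MLST8 mRNA was reduced but not lost, and the protein is not measured in these data. Its CPM (estimated counts scaled by library size after TMM normalization) was 58.0, 56.9 and 60.7 in WT and 25.5, 38.9 and 25.7 in MLST8-KO replicates 1, 2 and 3, with replicate 2 the highest of the MLST8-KO samples. From blots of HCC2814 cells, the paper reported that MLST8 loss broke up the binding of mTOR to the mTORC2 subunit RICTOR. It also reported less AKT phosphorylation at an mTORC2 site. In the same blots mTOR still bound the mTORC1 subunit RAPTOR, and phosphorylation of S6K1, an mTORC1 substrate, was reported as unaffected. Libraries held between 14381673 and 15744154 estimated counts. A gene with 0 counts in the smallest of them may thus still have been present at up to 3 counts (0.216 CPM), a bound on counting error alone. All 8 squamous and epithelial markers were found at 20 or more counts in every sample, among them TP63 and KRT5. Of 8 fibroblast markers, 6 stayed under 10 counts in every sample, PDGFRA, PDGFRB, THY1 and COL6A3 among them. The others were LUM, with 3, 3 and 4 counts in WT and 25, 10 and 11 in MLST8-KO, and COL1A2, with 15, 9 and 18 counts in WT and 31, 36 and 17 in MLST8-KO, and the list summed to 0.750 to 0.970 TPM in WT and 1.26 to 2.67 TPM in MLST8-KO. Of 5 endothelial markers, 3 stayed under 10 counts in every sample, including CDH5. The others were VWF, with 20 to 35 counts, and PECAM1, with 14, 22 and 18 counts in WT and 9, 7 and 7 in MLST8-KO. PECAM1 was lower (log2 fold change -1.34, edgeR adjusted p = 0.0180, or 0.0508 without MLST8-KO replicate 1). Of the 4 immune markers listed, 3 also stayed under 10 counts in every sample, including PTPRC. CD68, a lysosomal protein and the other immune marker, had 625 to 1079 counts and was lower in MLST8-KO (-0.45, edgeR adjusted p = 0.0413, or 0.154 without MLST8-KO replicate 1). The part of these markers in the results was not tested. Because the samples are bulk RNA, more cells with a transcript cannot be told apart from more transcript per cell.

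One library, MLST8-KO replicate 1, stood apart in a set of transcripts but not over all genes. The chi-square per gene between replicates, where larger values mark larger differences, was 7.15 and 6.98 against MLST8-KO replicates 2 and 3. The other pairs of replicates within a group gave 8.92 to 26.5, the highest being WT replicates 1 and 3. MLST8-KO replicate 1 held liver transcripts that the other samples nearly lacked, such as 849 counts of AFP against 3 to 26 elsewhere and 1083 counts of FGA against 2 to 30. The 8 liver markers summed to 278 TPM (a level scaled by gene length and depth, comparable between genes) there, against 0.550 to 6.92 TPM in WT and 3.27 to 5.20 TPM in the other MLST8-KO samples. COL2A1, a cartilage collagen, had 381 counts there and 1 to 14 elsewhere. It was the only cartilage marker that stood out, with ACAN at 5 counts, COL9A1 at 1 and MATN1 at 12 in that library. HAPLN1 had no row. Among the 43 genes, CDH2 and FN1 had 20 or more counts in that library and were at least 2 times higher there than in any other. COL3A1, with 18 counts there and 0 to 6 elsewhere, and POSTN, with 3 there and 0 to 1 elsewhere, fell short of 20 counts. The part of these transcripts in the results was not tested, and calls that depend on that library are given with and without it.

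**Figure D1:**
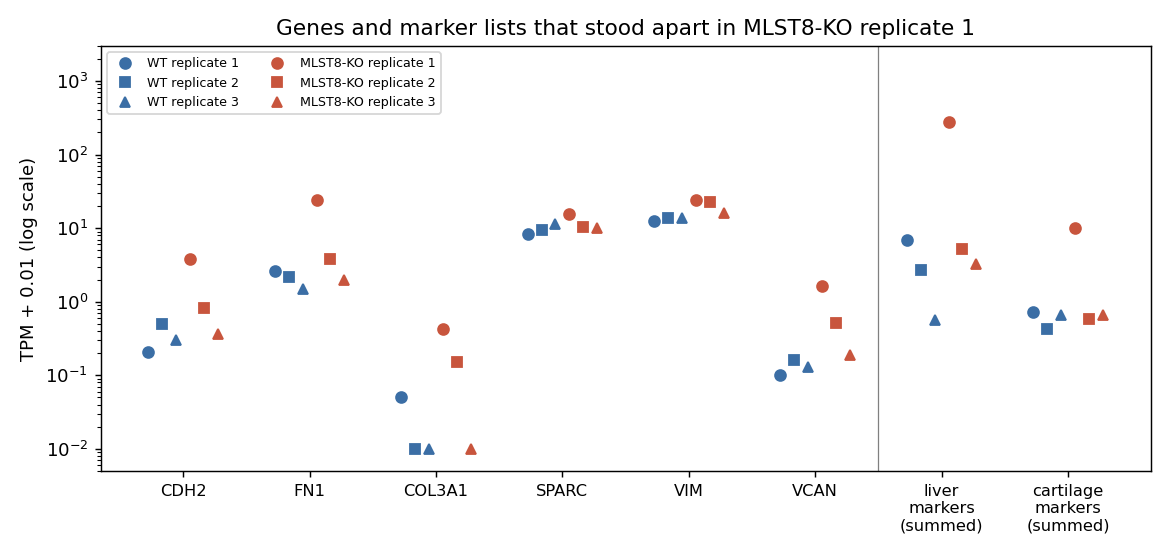
Level in TPM + 0.01 (log scale) of 5 of the 43 genes, of the proteoglycan VCAN and of 2 summed marker lists in each sample (blue WT, red MLST8-KO, marker shape by replicate). MLST8-KO replicate 1 lies apart for CDH2, FN1, VCAN and the liver and cartilage lists, whereas VIM was also high in MLST8-KO replicate 2. The cartilage sum in MLST8-KO replicate 1 is mostly COL2A1 alone (9.64 of 10.2 TPM).

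The genes spanned a wide range of levels. Averaged over the 6 samples, 7 were at or above 100 TPM (CD44, EPCAM, ITGA3, ITGB1, PLAU, PLAUR and SNAI2), 22 lay from 10 to 100 TPM, 6 from 1 to 10 TPM and 8 below 1 TPM. The top of the list thus joined epithelial and adhesion genes with urokinase, its receptor and the EMT factor SNAI2, while N-cadherin (CDH2), ZEB1, ZEB2, type III collagen (COL3A1), periostin (POSTN) and MMP9 were at the bottom.

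**Figure D2:**
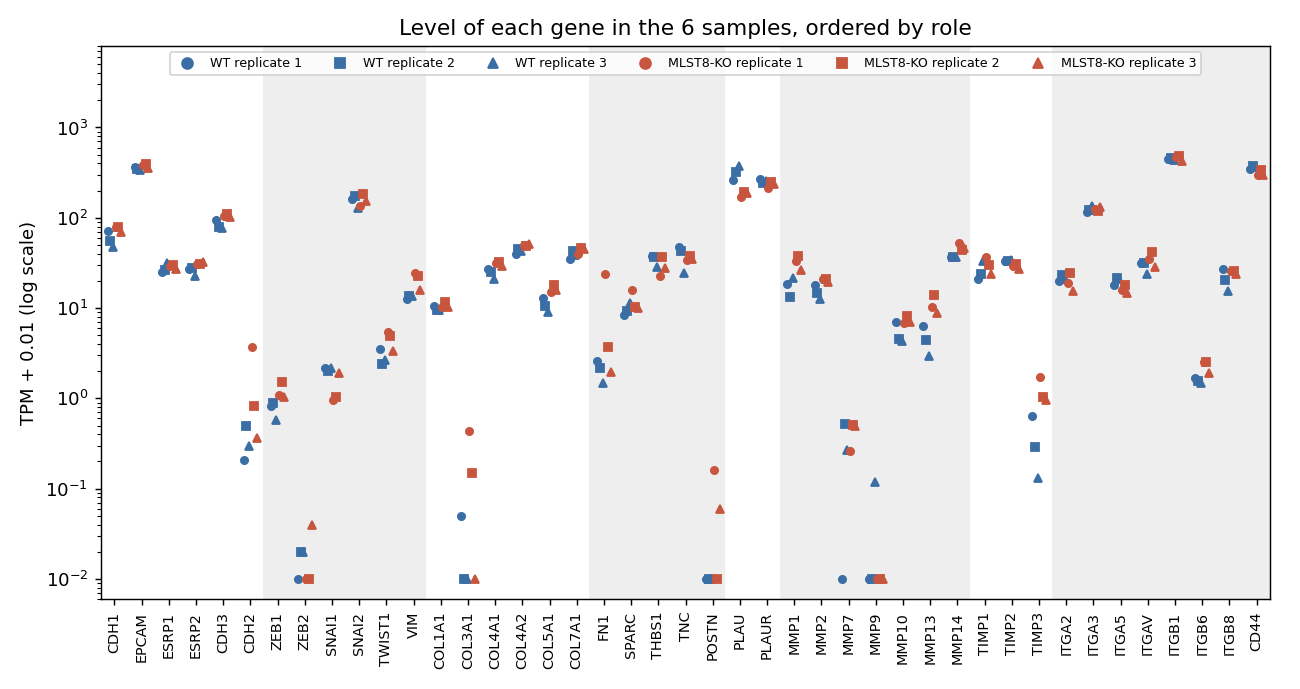
TPM + 0.01 (log scale) of all 43 genes in the 6 samples, with genes on the horizontal axis grouped by role (alternating shading), blue for WT, red for MLST8-KO and marker shape by replicate. Levels run from ITGB1 at the top to genes listed at 0 in most samples, such as MMP9 and POSTN.

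Of the 43 genes, 38 passed the filter on low counts and were tested. In MLST8-KO, 8 were higher (CDH2, VIM, COL5A1, MMP1, MMP2, MMP13, MMP14 and TIMP3) and 5 were lower (PLAU, PLAUR, TIMP2, ITGA5 and CD44) at an edgeR adjusted p under 0.05. The higher genes are 21.1% of those tested, where 16.3% of all 12951 genes tested were higher, and the lower genes 13.2%, where 15.7% of all genes were lower. Both shares are near those of all genes. Every MLST8-KO sample was above every WT sample in CPM for 11 of the 38 (24.8% of all genes) and below for 6 (24.2% of all genes). The median log2 fold change was 0.13 over the 38 genes and 0.00 over all genes. With upper quartile scaling the calls were 12 higher and 3 lower, and with limma on log2(TPM + 1) they were 12 higher and 1 lower. All genes moved the same way, from 51.0% of calls higher to 62.0% and 71.0%, and the median of all genes rose to 0.09 on the TPM scale.

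Without MLST8-KO replicate 1, COL5A1, MMP1 and MMP13 remained higher and PLAU remained lower among the 38 genes, while 7.49% of all genes were higher and 6.50% lower. PLAU and MMP13 passed the threshold in each of the 14 alternative fits, and MMP1 in 13 of them. CDH2 and FN1 were the genes whose fold change depended most on MLST8-KO replicate 1. Leaving out WT replicate 2 also cut the calls, to 2 higher and 2 lower among the 38 genes. Over all genes it left 971 higher and 1044 lower.

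**Figure D3:**
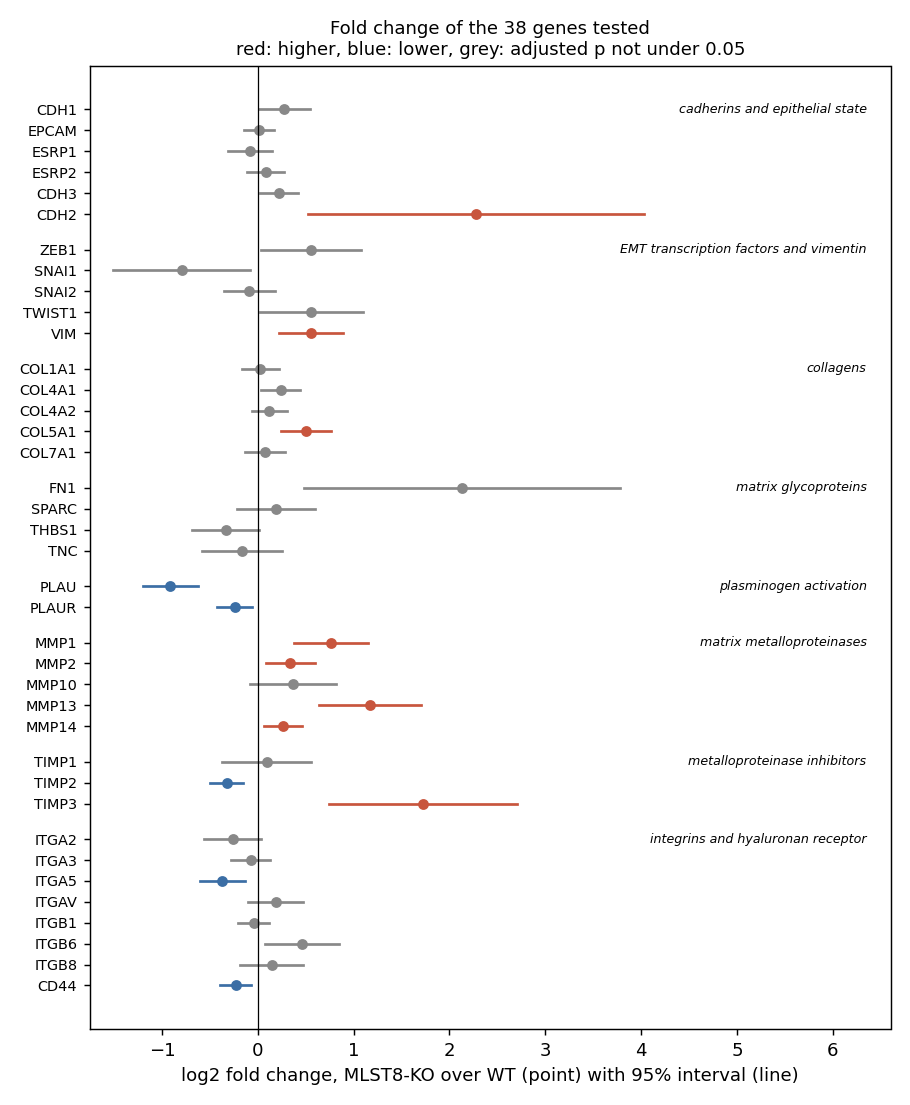
Log2 fold change of MLST8-KO over WT (horizontal axis) with its 95% interval for the 38 genes tested, by role. Red genes were higher and blue genes lower at an edgeR adjusted p under 0.05, and CDH2 and FN1 have the widest intervals.

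**Figure D4:**
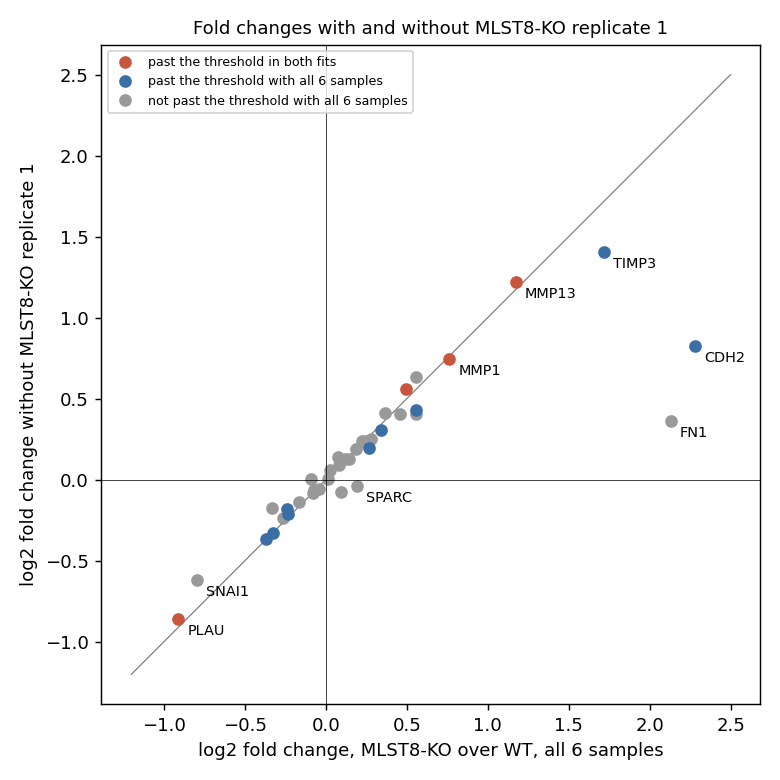
Log2 fold change with all 6 samples (horizontal axis) against that without MLST8-KO replicate 1 (vertical axis) for the 38 genes tested; the line marks equal values. CDH2 and FN1 lie far below the line, and COL5A1, MMP1, MMP13 and PLAU (red) pass the threshold in both fits.

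Of the 6 cadherins and epithelial markers, 1 was higher, the mesenchymal CDH2, and 0 were lower, where 16.3% of all genes were higher and 15.7% lower. E-cadherin (CDH1), the adherens junction protein whose loss defines EMT, was at 184, 143 and 128 CPM in WT and at 191, 185 and 176 CPM in MLST8-KO, and its groups overlapped. The change was 0.28 ± 0.12 on the log2 scale (SE), with an edgeR adjusted p of 0.101 that became 0.00217 without WT replicate 1 (log2 fold change 0.44), and it also passed with a replicate block (0.29, adjusted p = 0.0398) and on the TPM scale. P-cadherin (CDH3), the cadherin of basal and squamous cells, lies 14.6 kb before CDH1 on chromosome 16 (CDH3 chr16:68636189-68722616, CDH1 chr16:68737225-68835548, both plus strand, GRCh38). It was at 187, 155 and 158 CPM in WT and at 191, 199 and 194 CPM in MLST8-KO, so that each MLST8-KO sample exceeded each WT sample. A log2 fold change of 0.22 ± 0.09 did not pass the test (edgeR adjusted p = 0.0745), other than without WT replicate 1 (log2 fold change 0.31), with upper quartile scaling and on the TPM scale.

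EPCAM, an adhesion molecule of epithelial cells, ranged from 299 to 314 CPM in WT and from 298 to 316 CPM in MLST8-KO. The 95% interval of its log2 fold change ran from -0.14 to 0.17. ESRP1 and ESRP2, the splicing factors that maintain epithelial isoforms, had log2 fold changes of -0.08 and 0.08, with intervals from -0.31 to 0.15 and from -0.11 to 0.27. Their groups overlapped as well.

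N-cadherin (CDH2), the mesenchymal cadherin, had 7, 15 and 7 counts in WT and 116, 27 and 11 counts in MLST8-KO. The groups overlapped, and MLST8-KO replicate 1 alone was far above the rest. This log2 fold change, 2.28 ± 0.79 (edgeR adjusted p = 0.0491), fell to 0.83 without that library (adjusted p = 0.275). The call was also lost, with values from 2.07 to 2.73, when MLST8-KO replicate 2 or any one WT sample was left out. Of the summed TPM of CDH1, CDH2 and CDH3, CDH2 made up 0.238% in WT and 0.878% in MLST8-KO. In MLST8-KO, CDH2 was at 3.74 TPM in replicate 1 and at 0.82 and 0.35 TPM in replicates 2 and 3. Among these cadherins, CDH3 was the main one, at 57.3%, 58.7% and 61.9% in WT and 55.7%, 58.5% and 59.4% in MLST8-KO. The difference of its mean share was -1.41 percentage points (exact permutation test, two-sided, p = 0.50, where 3 samples against 3 cannot go below 0.10).

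Among the EMT factors, SNAI2 (Slug), which basal epithelial cells also express, was by far the most abundant, at 155 ± 23.9 TPM in WT and 157 ± 23.6 TPM in MLST8-KO (SD, n = 3). SNAI2 changed by -0.09 on the log2 scale, with a 95% interval from -0.36 to 0.18. The other factors were low. SNAI1 (Snail) had 28, 25 and 27 counts in WT and 12, 13 and 25 counts in MLST8-KO, so its groups did not overlap after scaling, but MLST8-KO replicate 3 was close to WT. SNAI1 changed by -0.80 ± 0.32 on the log2 scale (edgeR adjusted p = 0.0815, and 0.0283 with a log2 fold change of -1.21 without MLST8-KO replicate 3).

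ZEB1, a repressor of CDH1, had 41, 43 and 27 counts in WT and 52, 75 and 51 in MLST8-KO, again without overlap, with a log2 fold change of 0.56 ± 0.24 (edgeR adjusted p = 0.0915). TWIST1 had 44, 29 and 32 counts in WT and 66, 60 and 42 in MLST8-KO, which overlapped, with the same log2 fold change of 0.56 ± 0.24 (adjusted p = 0.101). The test was passed without WT replicate 1 (log2 fold change 0.72, adjusted p = 0.0477) and on the TPM scale. ZEB2 had 2 counts in all WT and 2 in all MLST8-KO samples together and was not tested. Neither SNAI2 nor the low factors tested thus passed the edgeR test with all samples.

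Vimentin (VIM, chr10:17228259-17237593, plus strand), the intermediate filament of mesenchymal cells, was higher in MLST8-KO. Its CPM was 12.1, 12.9 and 13.4 in WT and 21.9, 19.8 and 14.8 in MLST8-KO. WT samples lay close together, and each MLST8-KO sample was above them, with replicate 3 the nearest. VIM rose by 0.56 ± 0.15 on the log2 scale (1.47-fold, edgeR adjusted p = 0.0197). It was 0.43, 0.52 and 0.56 without MLST8-KO replicate 1, MLST8-KO replicate 2 or WT replicate 2, and then no longer passed (adjusted p = 0.0886, 0.0698 and 0.0668). In the annotation, 24.4% of VIM exon bases are shared with other genes, chiefly the antisense VIM-AS1, and the sources used here do not say whether counting used strand. Such sharing reached 10% or more of exon bases in 6 of the 43 genes (CDH3, VIM, PLAU, MMP9, TIMP2 and ITGB6), whose values are uncertain to that extent.

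**Figure D5:**
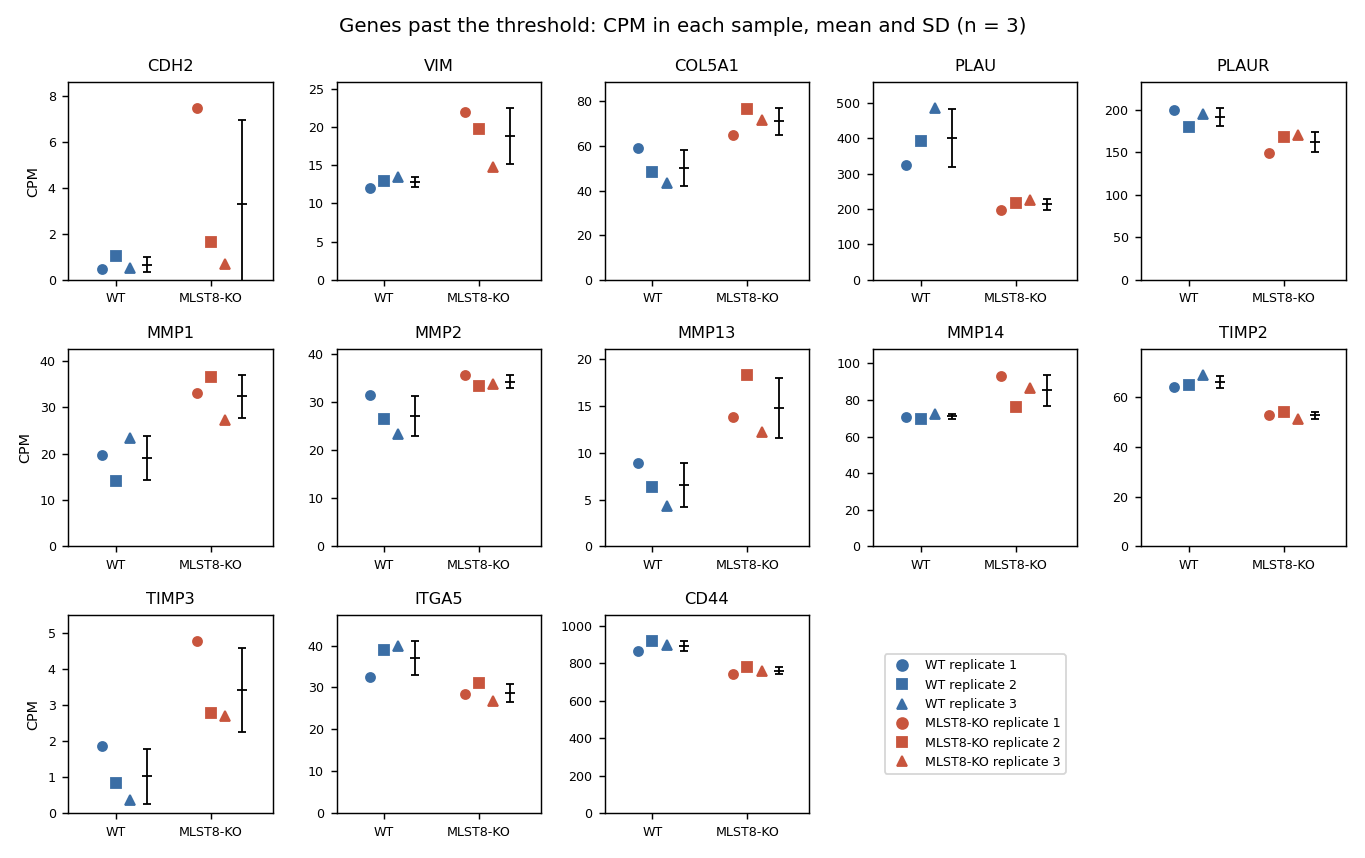
CPM of the 13 genes past the threshold in each sample (blue WT, red MLST8-KO, marker shape by replicate) with mean and SD in black (n = 3), each panel starting at 0; the lower SD bar of CDH2 is cut at 0. CDH2 alone has overlapping groups.

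Of 5 collagens tested, 1 was higher and 0 were lower, where 16.3% of all genes were higher and 15.7% lower. COL5A1 (chr9:134641774-134844843, plus strand), the type V chain that regulates the width of collagen I fibrils, was at 59.1, 48.4 and 43.3 CPM in WT and 64.8, 76.7 and 71.6 CPM in MLST8-KO. The groups did not overlap. The log2 fold change was 0.50 ± 0.12 (1.41-fold, edgeR adjusted p = 0.0119), and 0.56 without MLST8-KO replicate 1 (adjusted p = 0.0319). It did not pass without MLST8-KO replicate 2 (0.44, adjusted p = 0.0551) or WT replicate 2 (0.47, adjusted p = 0.0558).

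COL4A1 and COL4A2 encode the main chains of basement membrane collagen IV, and lie head to head on chromosome 13 (COL4A1 chr13:110148963-110307233 minus, COL4A2 chr13:110305812-110513209 plus). COL4A1 was at 96.0, 88.6 and 77.0 CPM in WT and 103, 104 and 101 CPM in MLST8-KO, without overlap, and its log2 fold change was 0.24 ± 0.09 (edgeR adjusted p = 0.0673). Without WT replicate 1, the sample nearest to MLST8-KO, it passed (0.31, adjusted p = 0.0165), as it did with upper quartile scaling and on the TPM scale. COL4A2 overlapped between groups, with a log2 fold change of 0.12 ± 0.08 (adjusted p = 0.290).

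COL1A1, a chain of the fibril collagen I, was even across the samples, from 30.6 to 32.6 CPM in WT and from 30.8 to 33.8 CPM in MLST8-KO, and the interval of its log2 fold change ran from -0.17 to 0.22. COL7A1, the anchoring fibril collagen that squamous epithelia make, was high in all samples, at 38.7 ± 3.66 TPM in WT and 43.9 ± 3.42 TPM in MLST8-KO, with a log2 fold change of 0.07 ± 0.09. COL3A1 was not tested. It had 2, 0 and 0 counts in WT and 18, 6 and 0 in MLST8-KO, most of them in replicate 1, and the ratio of the group totals per depth was 11.5, with an exact counting interval from 2.86 to 101 that takes no account of the spread between samples.

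None of the 4 matrix glycoproteins tested passed the threshold in the edgeR fit described above. Fibronectin (FN1), an EMT marker and the ligand of integrin alpha 5 beta 1, had 171, 136 and 95 counts in WT and 1516, 247 and 131 in MLST8-KO. The groups overlapped, since MLST8-KO replicate 3 was below WT replicates 1 and 2. Its log2 fold change of 2.13 ± 0.74 had an edgeR adjusted p of 0.0503. It passed with all 6 samples under upper quartile scaling (adjusted p = 0.0469), without the filter (0.0291), with at least 10 counts in every sample (0.0481) and with a replicate block (1.55, adjusted p = 0.0317). The log2 fold change was 0.36 without MLST8-KO replicate 1 (adjusted p = 0.366), and it rose to 2.31 without WT replicate 1 (adjusted p = 0.0327) and 2.61 without MLST8-KO replicate 3 (adjusted p = 0.0260).

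SPARC, a collagen-binding protein, had 433 counts in MLST8-KO replicate 1 and 243 to 311 in the other samples. Its log2 fold change of 0.19 ± 0.18 turned to -0.04 without that library. Thrombospondin-1 (THBS1), a regulator of adhesion and angiogenesis, was at 124, 118 and 96.0 CPM in WT and 68.6, 111 and 88.2 CPM in MLST8-KO, which overlapped. The log2 fold change of THBS1 was -0.33 ± 0.16 (edgeR adjusted p = 0.128), and it passed without WT replicate 3 (-0.44, adjusted p = 0.0403) or MLST8-KO replicate 2 (-0.52, adjusted p = 0.0448). Tenascin-C (TNC), a glycoprotein of remodeled stroma, varied more among WT samples (92.9 to 178 CPM) than among MLST8-KO samples (123 to 132 CPM), which lay inside that range. TNC had a log2 fold change of -0.16 ± 0.19. It was -0.40 without WT replicate 3 (edgeR adjusted p = 0.00562) but turned to 0.03 without WT replicate 1 (adjusted p = 0.904). Periostin (POSTN) had 0 counts in WT and 4 over the MLST8-KO samples and was not tested.

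Urokinase and its receptor were both lower in MLST8-KO. PLAU (chr10:73909177-73917497, plus strand), the protease that turns plasminogen into plasmin, was at 324, 392 and 485 CPM in WT and 197, 217 and 225 CPM in MLST8-KO. The groups were well apart, with the highest MLST8-KO sample below the lowest WT sample. PLAU changed by -0.91 ± 0.13 on the log2 scale (1.88-fold lower, edgeR adjusted p = 0.00283), the smallest adjusted p of the 38 genes, and it stayed between -1.04 and -0.75 when each sample was left out in turn. Of PLAU exon bases, 31.1% are shared with other genes, chiefly C10orf55 on the other strand.

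PLAUR (chr19:43646095-43670547, minus strand), the receptor that holds urokinase at the cell surface, was at 199.6, 180.1 and 195 CPM in WT and 149, 168 and 169.7 CPM in MLST8-KO. The groups did not overlap, but the change was small, with a log2 fold change of -0.24 ± 0.08 (1.18-fold lower, edgeR adjusted p = 0.0476). Leaving out any one of the 6 samples ended the call, with values from -0.29 to -0.18 and adjusted p from 0.0654 to 0.191. It was also lost on the TPM scale, with upper quartile scaling, without the filter and with a replicate block.

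The 250 bases before the RefSeq starts of the 43 genes (GRCh38.p14) were searched on both strands, where a start was matched. The motifs were CACCTG, the E-box that SNAI and ZEB factors bind, and TGAGTCA, the AP-1 site. RefSeq starts were matched for 27 of the 43 genes. Of their 38 promoters, counted by start, 4 held CACCTG (in PLAU, ZEB1 and ITGB6), where 17.5% of 35116 promoters do, and 3 held TGAGTCA (in PLAUR, MMP7 and POSTN), where 4.20% do. The matches in the urokinase pair, with that of ITGB6 for comparison, are printed on the strand of each gene with the motif in capitals. A match describes the letters and not a bound site.
PLAU, 233 bases before the second of 2 starts, chr10:73910887-73910916, plus strand: caggcccccggcCAGGTGcatgggaggaag
ITGB6, 70 bases before the start, chr2:160200325-160200354, minus strand: ttggtgattgtaCACCTGccttccttataa
PLAUR, 186 bases before the start, chr19:43670337-43670366, minus strand: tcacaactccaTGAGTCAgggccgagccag
The E-box of PLAU reads CAGGTG, the reverse complement of CACCTG, and the stretch holding the AP-1 match of PLAUR lies within an annotated PLAUR transcript that starts further upstream.

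Of 5 metalloproteinases tested, 4 were higher, where 16.3% of all genes were, and 0 were lower. Without MLST8-KO replicate 1 it was 2 of 5, where 7.49% of all genes were higher. DESeq2 with all 6 samples called 2 of them higher, and over all genes it called 1858 higher, against 2116 in edgeR. The genes of MMP7, MMP10, MMP1 and MMP13 lie in one cluster on chromosome 11, within 435 kb (chr11:102520508-102955734, all minus strand). MMP13 (collagenase-3), which cleaves collagen II and other fibril collagens, was at 8.95, 6.33 and 4.33 CPM in WT and 13.8, 18.3 and 12.2 CPM in MLST8-KO. The groups did not overlap, and the log2 fold change was 1.17 ± 0.24 (2.25-fold, edgeR adjusted p = 0.00736). It was 1.22 without MLST8-KO replicate 1 and stayed between 0.95 and 1.47 when any one sample was left out.

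MMP1 (interstitial collagenase), which opens the triple helix of collagens I and III, was at 19.7, 14.05 and 23.4 CPM in WT and 33.1, 36.6 and 27.3 CPM in MLST8-KO. Again every MLST8-KO sample was above every WT sample, with a log2 fold change of 0.76 ± 0.17 (1.70-fold, edgeR adjusted p = 0.0107). Without MLST8-KO replicate 2, the highest sample, it was 0.66 and just missed the threshold (adjusted p = 0.0517). MMP10 (stromelysin-2), the neighbor of MMP1, was at 6.24, 3.99 and 3.97 CPM in WT and 5.74, 6.67 and 5.95 CPM in MLST8-KO. WT replicate 1 lay among the MLST8-KO samples. The log2 fold change of MMP10 was 0.37 ± 0.20 (adjusted p = 0.185), and 0.62 without that sample (adjusted p = 0.0188).

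MMP14, the membrane-bound metalloproteinase that activates MMP2 and MMP13 at the cell surface, was at 70.8, 69.8 and 72.4 CPM in WT and 93.3, 76.2 and 86.4 CPM in MLST8-KO. MMP2 (gelatinase A), a protease of basement membrane collagen IV, was at 31.5, 26.4 and 23.3 CPM in WT and 35.7, 33.4 and 33.7 CPM in MLST8-KO. Neither gene overlapped between groups, and both rises were small, with log2 fold changes of 0.26 ± 0.09 for MMP14 (1.20-fold, edgeR adjusted p = 0.0449) and 0.34 ± 0.12 for MMP2 (1.27-fold, adjusted p = 0.0457). Both calls were close to the threshold. DESeq2 gave adjusted p = 0.0515 and 0.0532, and each passed in 1 of the 6 fits that left out a sample, MMP14 without MLST8-KO replicate 2 and MMP2 without WT replicate 1. Over those 6 fits the log2 fold changes ranged from 0.20 to 0.34 for MMP14 and from 0.24 to 0.46 for MMP2.

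The remaining metalloproteinases were near the limit of detection. MMP7 (matrilysin), an epithelial protease, had 6 counts over the WT samples and 10 over the MLST8-KO samples, a ratio per depth of 1.60 with an exact counting interval from 0.527 to 5.36. MMP9 (gelatinase B) had 2 counts in WT replicate 3 and 0 in the other samples. On the TPM scale, MMP14 and MMP1 were the most abundant of the 7 in MLST8-KO, at 47.5 ± 4.42 and 32.7 ± 5.65 TPM.

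The 3 inhibitors of metalloproteinases moved in different directions. TIMP2 (chr17:78852977-78925387, minus strand), which inhibits MMP2 and also takes part in its activation by MMP14, was at 64.1, 64.9 and 69.0 CPM in WT and 52.8, 54.0 and 51.2 CPM in MLST8-KO. The groups were tight and apart, with a log2 fold change of -0.33 ± 0.08 (1.25-fold lower, edgeR adjusted p = 0.0119). Without MLST8-KO replicate 1 the same value of -0.33 did not pass (adjusted p = 0.0546), nor did the change on the TPM scale, where it was -0.21 (limma adjusted p = 0.0832).

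TIMP3 (chr22:32801701-32863043, plus strand), the inhibitor that stays bound to the matrix, was higher from a low level. It had 28, 12 and 5 counts in WT and 74, 45 and 42 in MLST8-KO, without overlap. Its log2 fold change of 1.72 ± 0.44 (edgeR adjusted p = 0.0166) was the largest rise whose groups did not overlap. It was 1.40 without MLST8-KO replicate 1 (adjusted p = 0.0737) and 1.58 without WT replicate 2 (adjusted p = 0.0698). TIMP1 ranged from 8.89 to 14.9 CPM in WT and from 9.67 to 14.8 CPM in MLST8-KO, and its log2 fold change of 0.09 ± 0.21 turned to -0.08 without MLST8-KO replicate 1.

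Of the summed TPM of the 3 inhibitors, TIMP1 made up 38.7%, 41.6% and 49.5% in WT and 54.4%, 49.0% and 45.7% in MLST8-KO, and those groups overlapped. The difference of 6.40 percentage points gave p = 0.30 in the exact permutation test. TIMP2 averaged 56.1% in WT and 48.3% in MLST8-KO, and TIMP3 rose from 0.598% to 2.02% of the sum.

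Of the 7 integrins and CD44, 0 were higher and 2 were lower, where 16.3% of all genes were higher and 15.7% lower. CD44 (chr11:35138870-35232402, plus strand), the receptor for hyaluronan, was at 868, 918 and 897 CPM in WT and 743, 779.8 and 762 CPM in MLST8-KO. The groups did not overlap, and the log2 fold change was -0.23 ± 0.07 (1.17-fold lower, edgeR adjusted p = 0.0324). The call was lost without any one MLST8-KO sample or WT replicate 2 (-0.25 to -0.21, adjusted p from 0.0646 to 0.125), with upper quartile scaling and on the TPM scale.

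ITGA5 (chr12:54395261-54419460, minus strand), the alpha subunit of the fibronectin receptor, was at 32.4, 38.9 and 39.8 CPM in WT and 28.4, 30.9 and 26.6 CPM in MLST8-KO. On the log2 scale it changed by -0.37 ± 0.11 (1.29-fold lower, edgeR adjusted p = 0.0257), with no overlap. It did not pass without MLST8-KO replicate 1 (-0.36), MLST8-KO replicate 3 (-0.32), WT replicate 2 (-0.34) or WT replicate 3 (-0.32), with adjusted p from 0.0513 to 0.0974, nor on the TPM scale.

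ITGB1, the beta subunit that pairs with most of these alpha chains, was the most abundant of the 43 genes, at 444 ± 11.9 TPM in WT and 465 ± 30.5 TPM in MLST8-KO. The interval of its log2 fold change ran from -0.20 to 0.12. ITGA3, a laminin receptor subunit, and ITGAV, the alpha v subunit, overlapped between groups, with log2 fold changes of -0.08 ± 0.09 and 0.19 ± 0.13. ITGA2, a collagen receptor subunit, was at 86.6, 99.98 and 93.9 CPM in WT and 74.8, 95.2 and 63.5 CPM in MLST8-KO. ITGA2 changed by -0.26 ± 0.13 on the log2 scale (edgeR adjusted p = 0.150), and -0.43 without MLST8-KO replicate 2 (adjusted p = 0.0353).

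ITGB6 and ITGB8, partners of alpha v that release active TGF-beta from its latent complex, gave different patterns. ITGB6 was low, with 60, 56 and 52 counts in WT and 89, 92 and 71 in MLST8-KO. Its groups did not overlap, and the log2 fold change of 0.46 ± 0.17 did not pass (edgeR adjusted p = 0.0628) other than with upper quartile scaling and with limma on log2(TPM + 1). ITGB8 ranged from 74.0 to 123 CPM in WT and from 104 to 110 CPM in MLST8-KO, which lay inside the WT range. Its log2 fold change of 0.14 ± 0.15 was 0.35 without WT replicate 1 (edgeR adjusted p = 0.0205). It turned to -0.02 without WT replicate 3 (adjusted p = 0.913). Among the beta subunits that can join alpha v, ITGB1 made up 82.3%, 84.6% and 83.8% of the summed TPM in WT and 82.4%, 82.6% and 82.4% in MLST8-KO, a difference of -1.08 percentage points (exact permutation test p = 0.40).

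Other genes of the same processes were counted in 6 lists of 197 genes, of which 156 were tested, with 43 higher (27.6%, against 16.3% of all genes) and 18 lower (11.5%, against 15.7%). Without MLST8-KO replicate 1 they were 25 and 8, where 7.49% and 6.50% of all genes were called. Of 35 other collagens and matrix proteins tested, 14 were higher and 0 lower, or 9 and 0 without that library. COL12A1, a collagen on the surface of fibrils, had 321, 273 and 202 counts in WT and 609, 745 and 533 in MLST8-KO, a log2 fold change of 1.13 ± 0.15 (edgeR adjusted p = 0.00281). NID1, the nidogen that links laminin to collagen IV, was at 123, 77.0 and 69.6 CPM in WT and 198, 212 and 154 CPM in MLST8-KO (1.06 ± 0.20). Beside COL5A1 and COL4A1, these matrix genes did not overlap between the groups, and COL12A1 and NID1 passed without MLST8-KO replicate 1 as well (adjusted p = 0.0198 and 0.0268). VCAN, COL4A6, NID2 and LUM were highest in MLST8-KO replicate 1, by at least 2 times over any other library.

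Other epithelial junction and identity genes went both ways, with 7 of 26 higher (26.9%, against 16.3% of all genes) and 8 lower (30.8%, against 15.7%). This list also holds transcription factors such as GRHL2 and KLF5 and the protease ST14, so its counts are not of junction genes alone. Without MLST8-KO replicate 1 they were 3 and 3, where 7.49% of all genes were higher and 6.50% lower. The claudin CLDN1 rose (log2 fold change 0.88 ± 0.19, edgeR adjusted p = 0.00807), as did the cadherin CDH13 (0.59 ± 0.14), while the claudin CLDN7 (-0.77 ± 0.15) and occludin, OCLN (-0.52 ± 0.13), were lower. CDH13 lost its call without MLST8-KO replicate 1 (0.56, adjusted p = 0.0501), MLST8-KO replicate 2 (0.50) or WT replicate 2 (0.52), and OCLN without MLST8-KO replicate 1 (-0.43, adjusted p = 0.0686), MLST8-KO replicate 3 (-0.46) or WT replicate 2 (-0.50). Of 21 other mesenchymal genes tested, 4 were higher (19.0%) and 1 was lower (4.76%), near or below the shares of all genes, or 3 and 0 without MLST8-KO replicate 1. TCF4, an E-box binding factor, rose by 1.11 ± 0.18 and caldesmon, CALD1, which binds actin, by 1.03 ± 0.16 on the log2 scale, whereas the galectin LGALS1 changed by -0.52 ± 0.17. The LGALS1 call held in 1 of 6 fits that left out a sample, that without WT replicate 1, and the others gave -0.62 to -0.32 (adjusted p from 0.0578 to 0.152, and 0.0916 without MLST8-KO replicate 1).

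Among collagen-modifying enzymes, 2 of 21 were higher (9.52%, against 16.3% of all genes) and 1 lower (4.76%, against 15.7%). They were COLGALT2, which adds galactose to collagen (0.94 ± 0.20), P3H2, a prolyl 3-hydroxylase (0.37 ± 0.11), and P4HA1, a prolyl 4-hydroxylase (-0.36 ± 0.10). Without MLST8-KO replicate 1, COLGALT2 passed (adjusted p = 0.0351), but P3H2 (0.42, adjusted p = 0.0543) and P4HA1 (-0.36, adjusted p = 0.0736) did not. P3H2 was also lost without MLST8-KO replicate 2 (0.25) or WT replicate 2 (0.36), and P4HA1 without MLST8-KO replicate 2, MLST8-KO replicate 3 or WT replicate 2 (each -0.36). Other proteases and inhibitors gave 5 higher (19.2%) and 3 lower (11.5%) of 26, near the shares of all genes. Without MLST8-KO replicate 1 they gave 3 and 2, where 7.49% of all genes were higher and 6.50% lower. ADAMTS15, a proteoglycan-cleaving metalloproteinase, rose by 1.21 ± 0.23 on the log2 scale.

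Both serpin inhibitors named by the rule act on plasminogen activators. SERPINB2 had 159, 73 and 58 counts in WT and 195, 279 and 200 in MLST8-KO, a log2 fold change of 1.10 ± 0.29 (edgeR adjusted p = 0.0181) that did not pass without MLST8-KO replicate 2 (0.94, adjusted p = 0.0806) or WT replicate 2 (0.93, adjusted p = 0.0783). SERPINE2 was lower, at 92.6, 119 and 118 CPM in WT and 53.3, 59.2 and 65.1 CPM in MLST8-KO (-0.89 ± 0.12, adjusted p = 0.00281).

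Other integrins and adhesion genes gave calls both ways, with 11 of 27 higher (40.7%, against 16.3% of all genes) and 5 lower (18.5%, against 15.7%). Without MLST8-KO replicate 1 they were 6 and 3, where 7.49% of all genes were higher and 6.50% lower. HAS3, a hyaluronan synthase, fell most, from 8102, 12307 and 15509 counts in WT to 3950, 3943 and 5529 in MLST8-KO. The log2 fold change of HAS3 was -1.55 ± 0.23 (edgeR adjusted p = 0.00317), beside that of the hyaluronan receptor CD44 at -0.23. ITGA6, a laminin receptor subunit of basal epithelial cells, rose by 0.73 ± 0.18, and the adaptor TLN2 by 0.80 ± 0.17, whereas paxillin, PXN, was lower (-0.60 ± 0.09) on the log2 scale. ITGA6 lost its call without MLST8-KO replicate 2 (0.65, adjusted p = 0.0633) or WT replicate 2 (0.73, adjusted p = 0.0523). Over the same comparison 6 squamous markers, TP63, SOX2, KRT5, KRT14, KRT6A and KRT17, were higher and KRT8 and KRT18 were lower, and the summed TPM of the 8 markers was 12229 to 18863 in WT and 23576 to 26398 in MLST8-KO. Without MLST8-KO replicate 1, SOX2, KRT14 and KRT17 were higher and KRT18 was lower, and TP63, KRT5, KRT6A and KRT8 did not pass (adjusted p from 0.0565 to 0.0915). The part of that shift in the values of the 43 genes was not tested.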

How the data were processed

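RNA from 3 WT and 3 MLST8-KO samples was sequenced after polyA selection. The authors aligned reads with HISAT and Bowtie2 to GRCh38.p12 and deposited estimated counts per gene, which are not normalized, with FPKM and TPM values, which are scaled by gene length and depth. Versions are not given in the sources used here. The authors' own comparison, which holds log2 fold changes and p-values, was not used. Of the count values, 12.4% were not whole and were rounded.

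Groups were compared in edgeR 4.0.16 (R 4.3.3) with filterByExpr by group, TMM scaling and the quasi-likelihood test, adjusted by Benjamini-Hochberg over 12951 genes, with a threshold of 0.05. Intervals are 95%. The fit was repeated with limma 3.58.1 on log2(TPM + 1) and log2(TPM + 0.1), with DESeq2 1.42.0, with other scalings and filters, with the replicate number as a block, and with any 1 sample left out. Shares of summed TPM were compared by exact permutation, with FPKM as an alternative. The fit was tested on simulated data.

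The members and lists were chosen with earlier results of these data known. All 43 are named. In each of 6 other lists, the text names the 2 largest rises and 2 largest falls among called genes averaging 50 counts or more whose groups did not overlap. VCAN, COL4A6, NID2, LUM and the marker genes were named after their values were seen. CCN1 and CCN2 were matched by Entrez identifier, and MMP8 was not matched. Within each group the replicates were distinct beyond sampling noise (chi-square per gene 6.98 to 26.5). Of the symbols, 25 that had become dates were restored. Coordinates are from GENCODE (GRCh38) and promoters from RefSeq (GRCh38.p14), and figures were drawn with matplotlib.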

Additional observations from a re-analysis of the deposited data

How the results depend on the processing

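The count of lower genes among the 43 was 5 and moved to 1 with limma on log2(TPM + 1), 1 with limma on log2(TPM + 0.1) and 3 with upper quartile scaling. Over all genes, lower calls went from 2030 to 1134 and 1132 with the same limma fits. When each sample was left out in turn, the 43 genes gave between 2 and 13 higher calls and between 1 and 5 lower calls. All genes gave 971 to 2692 higher and 850 to 2651 lower, and the other lists gave 21 to 54 higher and 8 to 20 lower. Higher calls among the 43 were 13 without WT replicate 1, 2 without WT replicate 2, 5 without WT replicate 3, and 3 without MLST8-KO replicate 1 or 2. Leaving out WT replicate 2 gave 2 lower calls, MLST8-KO replicate 1 gave 1, and MLST8-KO replicate 3 gave 3. These fits also have fewer samples. Over them the log2 fold change ran from 0.17 to 0.44 for CDH1, 0.17 to 0.31 for CDH3 and 0.41 to 0.72 for TWIST1. It ran from -1.21 to -0.62 for SNAI1, 0.16 to 0.31 for COL4A1 and -0.52 to -0.18 for THBS1. For MMP10 it ran from 0.25 to 0.62, and for ITGA2 from -0.43 to -0.14. None of these genes passed with all 6 samples in the main fit.

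Over the single genes and alternatives, 55 values lost a call, 30 gained one, 19 uncalled values changed sign, and no called value did. With FPKM the shares moved by less than 1 SD. Without any one sample the share difference of CDH3 ran from -2.42 to -0.10 percentage points (-2.42 without WT replicate 1, -0.10 without WT replicate 3, and -0.32 or -2.18 when the first or the third MLST8-KO sample was left out). That of TIMP1 ran from 4.02 without MLST8-KO replicate 1 to 9.50 without WT replicate 3, with 4.13 without WT replicate 1, and that of ITGB1 from -1.71 without WT replicate 1 to -0.57 without WT replicate 2. Deviations of samples with the same replicate number had correlations of 0.105, 0.0565 and 0.140, and each sample correlated best with its own number. The main fit did not take the numbers as pairs, because the sources used here state no pairing. Whether samples of the same number share an experiment is not known. With a replicate block, the 43 genes gave 10 higher and 4 lower calls, all genes 2261 and 2157, and the other lists 51 and 19.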
